A study of Homo sapiens with 6 samples.

Results

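The genes described here are the SR proteins, the heterogeneous nuclear ribonucleoproteins (hnRNPs) and a set of further splicing regulators of the TRA2, PTBP, MBNL, CELF, RBFOX, NOVA, QKI and KHSRP families. They were taken by gene symbol, with no use of measured values, and came to 60 of the 20289 genes in the table: 12 SRSF genes, 27 HNRNP genes and 21 others. The libraries are labelled as T24, an established line from a human bladder cancer, grown in RPMI 1640 with 10% serum. Cells of 1 group were transfected by lipofection with the pcDNA3.1 plasmid carrying the long non-coding RNA LINC00665, and cells of the other with the Vector plasmid (n = 3 libraries each, given as independent experiments). The comparison asks which genes differ in level when LINC00665 is overexpressed. RNA was measured at the level of the whole gene, so no value here is the use of an exon. In bulk RNA, fewer cells of a type and less RNA per cell cannot be told apart.

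SR proteins carry RNA recognition domains and a tail rich in arginine and serine, and most of them bind exonic enhancers and favour inclusion of the exon. Proteins of the hnRNP group bind nascent RNA broadly and often oppose SR proteins at nearby sites. The MBNL, CELF, RBFOX, PTBP and NOVA families set tissue-dependent splicing, and many SR and hnRNP genes limit their own level through transcripts that are removed by nonsense-mediated decay (NMD).

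Library totals ran from 17289788 to 22725687 expected counts. When the libraries were checked against the line on their labels, 3 of 6 failed to match it, and a comparison without those 3 was not possible, so groups are named below by label only. Of 11 urothelial and epithelial markers, 11 reached 1 CPM (CPM being the count scaled to the library size) in every library labelled LINC00665 and 2 did so in every library labelled Vector, with summed levels of 6990 to 8530 CPM and 8.11 to 11.9 CPM. Of 7 kidney markers, 2 and 4 did so, with sums of 32.4 to 34.6 CPM and 309 to 478 CPM. The plasmid and whatever else separates the libraries by label cannot be told apart, and this holds for every difference below.

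Among the splicing regulators, 48 of 60 were abundant enough to be tested, and a smaller share of these than of all genes differed between the labels. By edgeR's quasi-likelihood test 20 passed an adjusted p of 0.05 (41.7%), beside 63.5% of all 13552 genes tested. The 20 were 6 higher and 14 lower under the LINC00665 label, beside 34.2% higher and 29.3% lower over all genes. The share lower was thus near that of all genes, while the share higher was smaller. The median log2 fold change was -0.20 for the 48 and 0.03 for all genes, and the median absolute value was 0.36 and 0.82. The 2 groups of 3 libraries did not overlap in 24 of the 48 genes (50.0%, beside 70.2% of all genes), with 8 higher (37.9% of all genes) and 16 lower (32.3%). A difference of at least 1 on the log2 scale together with a call was found for 10 (42.0% of all genes), of which 7 were lower. CELF2, SRSF12 and RBFOX3 are among these 10 and passed the filter on low counts through 1 group alone. Over all genes, 5691 met both conditions, 2156 of them lower. These are abundant genes, with a median level of 149 CPM against 27.5 CPM for all genes tested. Scaling by total counts shifted the median of all genes by -0.16 on the log2 scale, and the calls among the regulators were then 5 higher and 20 lower. Over all genes the same scaling gave 4174 higher and 4770 lower, in place of 4634 and 3977.

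**Figure D1:**
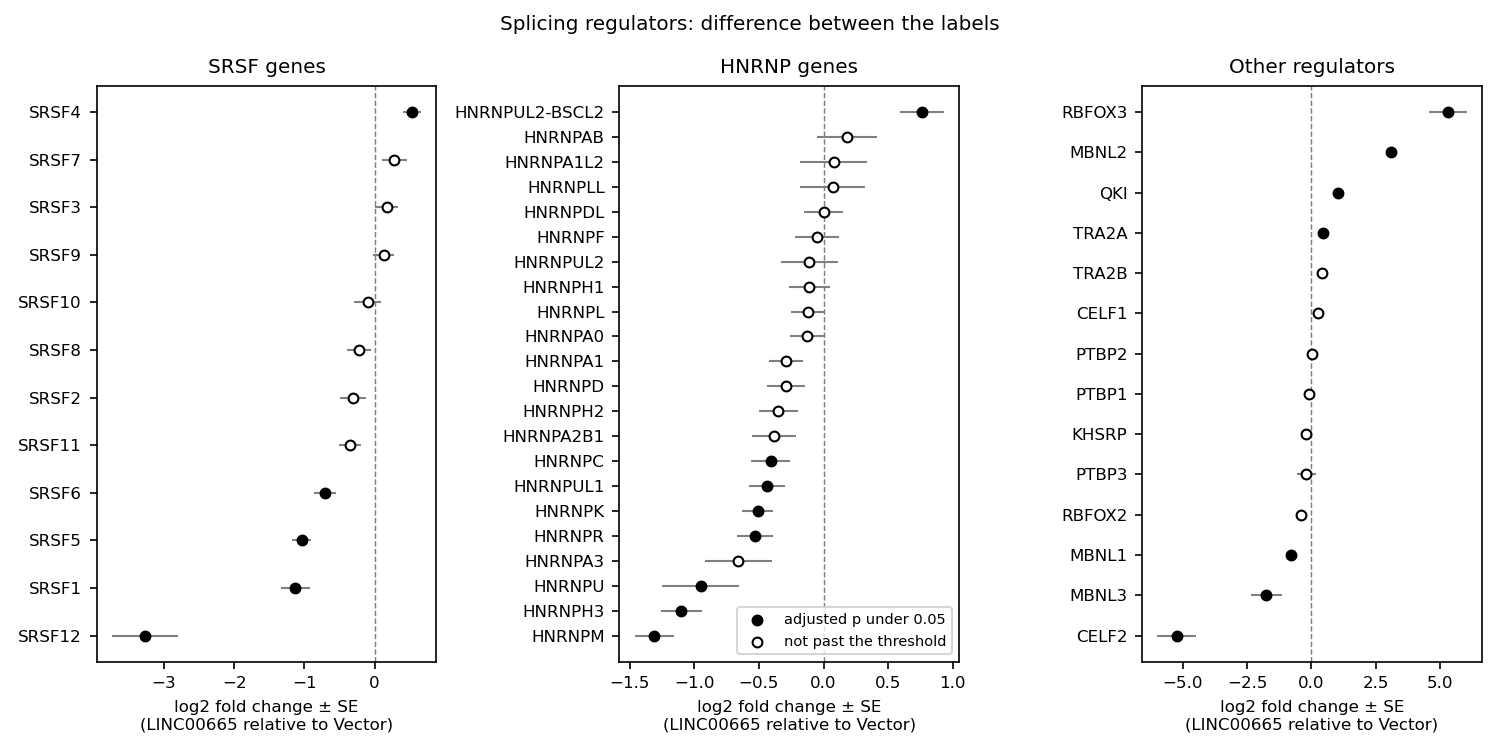
Log2 fold change (LINC00665 relative to Vector) with its standard error for the 12 SRSF genes, 22 HNRNP genes and 14 other regulators tested, n = 3 libraries per label. Filled points passed an adjusted p of 0.05 and open points did not; the ranges of the horizontal axes differ between panels, and the value of RBFOX3, with 1 count in the Vector group, depends on the prior count.

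Vector 2 was the lowest of the libraries with its label in 29 of the 48 regulators (60.4%), beside 33.3% of all genes. It was lowest in 8 of 12 SRSF genes and in 15 of 22 HNRNP genes. The median coefficient of variation of the regulators was 15.5% under Vector and 6.85% under LINC00665. The median over all genes was 20.9% and 10.8%, so there too the spread was wider under Vector. Without Vector 2 there were 24 calls in place of 20 (6 higher, 18 lower), and without Vector 3 also 24 (7 higher, 17 lower). Over all genes the share called was then 67.1% and 66.2%. Without Vector 2 the calls gained were HNRNPA2B1, HNRNPA3, HNRNPD, KHSRP and SRSF2, and MBNL3 was lost. Without Vector 3, HNRNPA3, HNRNPH2, RBFOX2, SRSF11 and TRA2B were gained, and HNRNPC and HNRNPU were lost. NOVA2, which did not pass the filter with all libraries, was then tested and called lower. It had 49 and 199 counts in Vector 1 and 2, and 1, 3 and 2 in LINC00665 1, 2 and 3. NOVA2 thus passed the filter through the Vector group alone, and a difference was built into that choice.

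Of the 12 SRSF genes, all tested, 4 fell and 1 rose under the LINC00665 label (41.7% called, beside 63.5% of all genes), with a median log2 fold change of -0.26. SRSF1, the founding SR protein, which promotes use of proximal 5′ splice sites, stood at 454, 296 and 508 CPM in Vector 1, 2 and 3 and at 191, 179 and 206 CPM in LINC00665 1, 2 and 3. SRSF5 stood at 142, 127 and 138 CPM and then at 71.2, 60.7 and 66.0 CPM. SRSF6 stood at 324, 257 and 317 CPM and then at 180, 162 and 207 CPM. In all of these genes every Vector library lay above every LINC00665 library, and Vector 2 was the lowest of its group. As log2 fold changes these were -1.13 (SE 0.21, adjusted p = 0.0017, edgeR) for SRSF1, -1.04 (SE 0.14, adjusted p = 0.00025) for SRSF5 and -0.71 (SE 0.16, adjusted p = 0.0048) for SRSF6. Without Vector 2 the SRSF1 value was -1.33.

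SRSF12, an SR protein that can act as a repressor, stood at 4.06, 1.89 and 5.48 CPM under Vector and at 0.372, 0.420 and 0.377 CPM under LINC00665. SRSF12 had fewer than 10 counts in every LINC00665 library, so it passed the filter on low counts through the Vector group alone and a difference was built into that choice. The groups were apart at a low level, and the log2 fold change was -3.27 (SE 0.47, adjusted p = 0.00042). SRSF4, a large SR protein close in sequence to SRSF6, stood at 119, 112 and 112 CPM and then at 166, 172 and 158 CPM. It was the member of the family that rose (log2 fold change 0.53, SE 0.13, adjusted p = 0.0062), and its 3 LINC00665 libraries lay above its 3 Vector libraries.

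The other 7 SRSF genes had log2 fold changes from -0.35 to 0.28 and did not pass the test. SRSF2, which binds exonic enhancers and also acts in transcription elongation, stood at 280, 186 and 292 CPM and then at 190, 222 and 200 CPM. Its groups overlapped through Vector 2, without which it was called (-0.49, adjusted p = 0.012). SRSF3, the smallest SR protein, stood at 309, 270 and 373 CPM and then at 328, 383 and 360 CPM, also with overlap. SRSF7, which like SRSF3 takes part in mRNA export, stood at 146, 98.2 and 152 CPM and then at 161, 163 and 159 CPM, so its groups did not overlap, but the adjusted p was 0.21. SRSF9 had a log2 fold change of 0.13 that changed sign with total-count scaling or with FPKM. Summed over the family, the level was 2199, 1717 and 2279 CPM under Vector and 1637, 1727 and 1716 CPM under LINC00665. The ratio of the group means was 0.82, with overlap through Vector 2 (exact two-sided permutation p = 0.2, where 3 against 3 allows no value under 0.1).

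SRSF1 and SRSF6 fell together, and the 250 bases before their RefSeq start (GRCh38.p14) are shown to compare their composition. SRSF1 is at chr17:58007247-58007496 on the minus strand and SRSF6 at chr20:43457646-43457895 on the plus strand. Capitals mark matches to 6 short motifs on either strand, overlaps included: the CCAAT box (CCAAT), the GC box (GGGCGG), the E-box (CACGTG), the TATA box (TATAAA), an ETS motif (CCGGAAG) and the CRE (TGACGTCA).
SRSF1: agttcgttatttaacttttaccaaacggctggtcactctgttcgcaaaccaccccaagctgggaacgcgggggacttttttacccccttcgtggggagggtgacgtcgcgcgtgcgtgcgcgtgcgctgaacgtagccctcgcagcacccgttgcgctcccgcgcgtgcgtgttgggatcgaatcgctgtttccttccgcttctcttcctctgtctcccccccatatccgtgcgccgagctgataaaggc
SRSF6: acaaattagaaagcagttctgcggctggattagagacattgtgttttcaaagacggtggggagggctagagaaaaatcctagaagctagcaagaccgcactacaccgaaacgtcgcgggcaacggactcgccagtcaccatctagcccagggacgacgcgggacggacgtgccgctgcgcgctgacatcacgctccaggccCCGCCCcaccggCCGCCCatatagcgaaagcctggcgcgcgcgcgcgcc
The SRSF1 window has 28 CpG dinucleotides and holds none of these letters. The SRSF6 window is 61.6% G and C, also with 28 CpG, and holds 2 GC boxes. Over the 53 regulators found in the table of RefSeq promoters, the GC box occurred in 66.0% (42.3% of 27305 promoters of the same length), the CCAAT box in 41.5% (33.0%) and the E-box in 11.3% (6.49%). The TATA box occurred in 11.3% (11.1%), the ETS motif in 13.2% (8.82%) and the CRE in 1.89% (1.77%). The median G and C content was 65.6% for the regulators and 58.0% for all promoters. A match in these windows is a description of letters, not of a bound site.

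Of the 27 HNRNP genes, 22 were tested, 7 fell and 1 rose (36.4% called, beside 63.5% of all genes), and the median log2 fold change was -0.29. HNRNPM, which regulates splicing of epithelial and mesenchymal exons, stood at 366, 302 and 390 CPM under Vector and at 132, 147 and 147 CPM under LINC00665. HNRNPH3, a G-tract binder, stood at 123, 114 and 157 CPM and then at 61.9, 60.7 and 60.7 CPM. Both genes had groups far apart, at log2 fold changes of -1.31 (SE 0.15, adjusted p = 0.00012) and -1.10 (SE 0.16, adjusted p = 0.00044). HNRNPH3 overlaps RUFY2 on the other strand and HNRNPM overlaps AC136469.2 there, and the use of strand in counting is not given, so reads of such partners cannot be told apart. The same holds for SRSF1 with AC015813.5, SRSF2 with MFSD11, HNRNPUL1 with TGFB1 and HNRNPA2B1 with CBX3. It holds too for HNRNPK with AL354733.3, HNRNPA3 with AC079305.3, HNRNPD with AC124016.1, HNRNPAB with PHYKPL, SRSF9 with GATC and CELF1 with NDUFS3 and PTPMT1. Some members also overlap genes on the same strand, as HNRNPH2 does with RPL36A-HNRNPH2.

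HNRNPK, a poly(C) binder, stood at 897, 855 and 942 CPM and then at 619, 662 and 616 CPM. HNRNPR, which acts in neurons and in mRNA stability, stood at 207, 176 and 180 CPM and then at 127, 137 and 126 CPM. HNRNPUL1, a relative of HNRNPU with a role in DNA repair, stood at 510, 572 and 650 CPM and then at 409, 427 and 446 CPM. In each of these the Vector group lay wholly above the LINC00665 group. The log2 fold changes were -0.51 (adjusted p = 0.0069), -0.53 (adjusted p = 0.0086) and -0.44 (adjusted p = 0.025). Without LINC00665 1 the value for HNRNPUL1 was -0.40, with an adjusted p of 0.10.

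HNRNPU, a scaffold protein that binds chromatin and RNA, stood at 809, 364 and 857 CPM under Vector and at 389, 348 and 313 CPM under LINC00665. Vector 2 lay among the LINC00665 libraries, so the groups overlapped, while the log2 fold change of -0.95 passed the test (SE 0.30, adjusted p = 0.022). The adjusted p was 0.082 without Vector 1, 0.051 without Vector 3, 0.072 without LINC00665 2 and 0.074 without LINC00665 3. Without Vector 2 the log2 fold change was -1.26 (adjusted p = 0.00014). HNRNPU overlaps COX20 on the other strand.

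HNRNPC, which masks cryptic exons in Alu elements, stood at 774, 641 and 849 CPM and then at 549, 604 and 548 CPM. Its groups were apart by little, and the log2 fold change was -0.41 (SE 0.15, adjusted p = 0.038). The adjusted p was 0.095 without Vector 1, 0.081 without Vector 3, 0.13 without LINC00665 1 and 0.10 without LINC00665 3. The gene that rose is HNRNPUL2-BSCL2, a readthrough of neighbouring genes: it stood at 69.4, 72.3 and 98.4 CPM and then at 134, 139 and 133 CPM, which gave 0.76 on the log2 scale (adjusted p = 0.0044). It shares sequence with HNRNPUL2, at -0.11 (adjusted p = 0.69), and with BSCL2, at 1.24 (adjusted p = 0.00053), so its reads cannot be told apart from theirs with certainty.

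HNRNPA1, the most abundant regulator, binds UAG-rich sites and competes with SR proteins for exons, and stood at 1145, 1112 and 1233 CPM and then at 908, 1044 and 901 CPM. The groups did not overlap, but the log2 fold change of -0.29 had an adjusted p of 0.08. Without LINC00665 2 it was -0.38 (adjusted p = 0.037). HNRNPA3, a related protein, stood at 413, 194 and 273 CPM and then at 203, 173 and 181 CPM. Vector 1 was far above all others, the groups overlapped, and the log2 fold change was -0.66 (adjusted p = 0.051). Without Vector 1 it was -0.34 (adjusted p = 0.18), without Vector 2 -0.89 (adjusted p = 0.0037) and without Vector 3 -0.71 (adjusted p = 0.050, just past the threshold). It also passed with total counts, without the filter and with DESeq2. The 14 HNRNP genes not called lay between -0.66 and 0.18, and 6 of them changed sign under some alternative. HNRNPLL and HNRNPA1L2 did so with total-count scaling and HNRNPDL with DESeq2 size factors, HNRNPF without Vector 3 (0.10), HNRNPUL2 without Vector 1 (0.04) and HNRNPAB without Vector 2 (-0.03). HNRNPA1L2 is a close copy of HNRNPA1, so that their reads may be mixed.

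Summed over the 27 HNRNP genes, the level was 7869, 6514 and 8432 CPM under Vector and 5766, 6097 and 5709 CPM under LINC00665. The 3 Vector libraries lay above the 3 LINC00665 libraries, with a ratio of means of 0.77 (exact two-sided permutation p = 0.1, the smallest that 3 against 3 allows). Per length, HNRNPA1 led in both groups, at 827 ± 46.7 FPKM under Vector and 614 ± 46.6 FPKM under LINC00665 (SD, n = 3). It was followed by HNRNPC at 504 ± 68.8 FPKM and HNRNPK at 473 ± 31.8 FPKM under Vector, levels that did not differ beyond their spread. Under LINC00665 those were 310 ± 11.0 and 327 ± 4.75 FPKM. HNRNPU went from rank 4 to rank 14 among the regulators by mean FPKM, HNRNPM from 10 to 25 and SRSF1 from 13 to 23. SRSF3 went from rank 12 to rank 4, at 180 ± 25.5 and 193 ± 13.9 FPKM, values that overlapped.

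**Figure D2:**
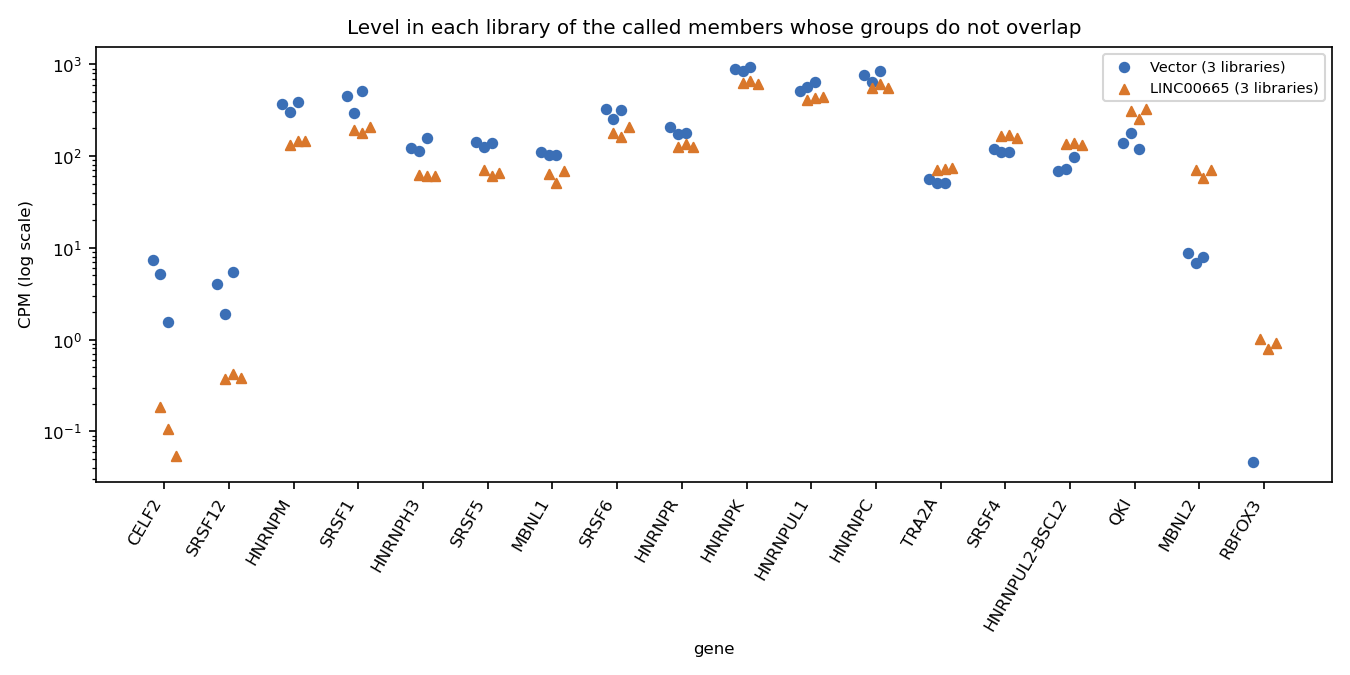
Level in CPM (log axis) in each of the 3 Vector and 3 LINC00665 libraries for the called regulators whose groups do not overlap. RBFOX3 has no point for Vector 2 and Vector 3, which had 0 counts; MBNL2 lay at 6.89 to 8.86 CPM under Vector and 57.8 to 70.7 CPM under LINC00665.

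Of the 14 other regulators tested, 4 rose and 3 fell (50.0% called, beside 63.5% of all genes), and the median log2 fold change was -0.03. MBNL proteins drive the postnatal change of splicing in muscle and are sequestered by repeat RNA in myotonic dystrophy. MBNL1 stood at 110, 104 and 102 CPM under Vector and at 63.8, 51.1 and 69.5 CPM under LINC00665. MBNL2 stood at 8.86, 6.89 and 7.92 CPM and then at 70.7, 57.8 and 69.9 CPM. The paralogs moved in opposite directions with no overlap: MBNL1 had a log2 fold change of -0.78 with an SE of 0.15 (adjusted p = 0.0025), and MBNL2 one of 3.07 with an SE of 0.17 (adjusted p = 2.4e-06), which is 8.37-fold. In GENCODE v29 (GRCh38), MBNL1 spans chr3:152243828-152465780, where it overlaps the antisense gene MBNL1-AS1, and MBNL2 spans chr13:97221434-97394120, both on the plus strand.

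Within the family, MBNL1 made up 83.6, 85.7 and 85.9% of the summed FPKM under Vector and 31.8, 34.8 and 35.7% under LINC00665. MBNL2 made up 12.4, 10.8 and 12.8% and then 67.3, 65.0 and 63.7%. The leading paralog therefore differed between the labels in every library, as did the summed FPKM of the family, at 27.2, 23.9 and 23.3 FPKM and then 35.9, 28.6 and 37.6 FPKM, without overlap (ratio of means 1.37, exact two-sided permutation p = 0.1). In CPM, which is not per length, the sums of 112 to 124 and 110 to 141 overlapped. MBNL3, at 5.83, 6.44 and 1.40 CPM and then 2.05, 0.630 and 1.35 CPM, had overlapping groups through Vector 3 and a log2 fold change of -1.75 (adjusted p = 0.034). Its adjusted p was 0.11 without Vector 1, 0.080 without Vector 2, 0.11 without LINC00665 2 and 0.085 without LINC00665 3.

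The windows before the RefSeq starts of MBNL1 (chr3:152268679-152268928, plus strand) and MBNL2 (chr13:97141584-97141833, plus strand) are printed because these paralogs moved in opposite directions. Capitals mark the same motifs. The MBNL2 start of RefSeq lies upstream of the gene start in GENCODE v29 (97221434).
MBNL1: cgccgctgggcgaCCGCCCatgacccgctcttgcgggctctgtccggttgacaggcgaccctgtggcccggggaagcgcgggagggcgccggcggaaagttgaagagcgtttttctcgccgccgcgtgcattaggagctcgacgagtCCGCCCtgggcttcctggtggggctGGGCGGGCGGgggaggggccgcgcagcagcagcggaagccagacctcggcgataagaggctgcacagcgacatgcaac
MBNL2: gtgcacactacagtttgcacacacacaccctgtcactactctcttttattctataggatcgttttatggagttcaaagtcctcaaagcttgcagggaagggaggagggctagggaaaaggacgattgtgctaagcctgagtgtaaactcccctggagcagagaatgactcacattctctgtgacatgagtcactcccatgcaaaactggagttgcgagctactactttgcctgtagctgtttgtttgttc
The MBNL1 window is 70.8% G and C with 30 CpG dinucleotides and holds 4 GC boxes. The MBNL2 window is 46.8% G and C with 3 CpG and holds none of the 6 motifs. Of these 4 windows, that of MBNL2 is the one with the lowest G and C content.

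CELF proteins bind GU-rich RNA and oppose MBNL at several exons. CELF2 stood at 7.32, 5.16 and 1.55 CPM under Vector and at 0.186, 0.105 and 0.0538 CPM under LINC00665, which is 280 counts against 7 over the groups. CELF2 too passed the filter through the Vector group alone, with fewer than 10 counts in every LINC00665 library. All Vector libraries were above all LINC00665 libraries, and the log2 fold change was -5.24 (SE 0.74, adjusted p = 0.00039). CELF1, which made up 93.4 to 97.8% of the family's FPKM under Vector and 99.2 to 99.6% under LINC00665, had overlapping groups at 147, 116 and 142 CPM and then 185, 144 and 154 CPM (adjusted p = 0.20).

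RBFOX3, the neuronal antigen NeuN and a binder of GCAUG, had 1 count over the Vector libraries and 54 over the LINC00665 libraries, at 0.0466, 0 and 0 CPM and then 1.02, 0.788 and 0.915 CPM. The ratio was 53.7, with a 95% interval of 9.24 to 2160 that covers counting error only. This gene passed the filter on low counts through the LINC00665 group alone. NOVA2, a neuronal regulator, had 252 and 6 counts and was not tested, at 2.28, 11.1 and 0.207 CPM and then 0.0465, 0.158 and 0.108 CPM. Most of its counts came from Vector 2. Of 10 neuronal markers, 2 reached 1 CPM in every Vector library and 4 in every LINC00665 library, with sums of 260 to 287 CPM and 142 to 172 CPM. DCX and ELAVL4 had 0 counts in all 6 libraries, and STMN2 and GAP43 had 0 under Vector. The part of such markers in the values of CELF2, NOVA2, SRSF12 and RBFOX3 was not tested.

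QKI, a binder of ACUAA repeats that also acts in circular RNA formation, stood at 139, 178 and 119 CPM and then at 313, 257 and 324 CPM. Its groups were apart, and it rose 1.03 log2 units (SE 0.19, adjusted p = 0.0015). TRA2A, a splicing activator related to the SR family, stood at 56.2, 50.9 and 51.5 CPM and then at 69.9, 72.4 and 73.9 CPM. The log2 fold change was 0.45 (adjusted p = 0.015), falling to 0.29 (adjusted p = 0.09) with total-count scaling and 0.24 (adjusted p = 0.12) with FPKM. Without LINC00665 1 or LINC00665 3 the adjusted p was 0.051 or 0.081. TRA2B, its paralog, stood at 197, 156 and 199 CPM and then at 221, 265 and 239 CPM, with no overlap and an adjusted p of 0.054. Without Vector 3 it was 0.45 (adjusted p = 0.037).

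PTBP1, which represses neuronal exons, stood at 633, 601 and 681 CPM and then at 594, 608 and 608 CPM, and PTBP2, its neuronal paralog, at 11.2, 11.6 and 13.3 CPM and then at 11.9, 11.9 and 12.7 CPM. Their groups overlapped, and PTBP2's log2 fold change of 0.02 changed sign with total-count scaling. PTBP3 varied widely among the Vector libraries, with a coefficient of variation of 59.2%, at 171, 82.7 and 54.2 CPM, with LINC00665 at 110, 71.0 and 87.9 CPM, and its log2 fold change of -0.20 turned to 0.38 without Vector 1 (neither called). PTBP1 made up 87.9 to 94.2% of PTBP FPKM under Vector and 89.1 to 92.9% under LINC00665. RBFOX2, the widely expressed member, was 175, 236 and 139 CPM and then 147, 114 and 158 CPM (log2 fold change -0.39, adjusted p = 0.15). It was -0.17 (adjusted p = 0.43) without Vector 2 and -0.56 (adjusted p = 0.032) without Vector 3.

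Apart from NOVA2, the 12 regulators not tested were at or near 0. HNRNPCL1, HNRNPCL2, HNRNPCL3, HNRNPCL4 and NOVA1 had 0 counts in all libraries. HNRNPA1P48 had 16 and 8 counts over the Vector and LINC00665 libraries, CELF3 had 3 and 4, CELF4 had 14 and 7, CELF5 had 5 and 10, CELF6 had 1 and 7 and RBFOX1 had 0 and 6. Differences among these were not detectable at this depth.

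Ratios within a library do not depend on how libraries are scaled to each other, and 14 pairs of related genes were compared. The groups did not overlap in 6 pairs, each with an exact two-sided permutation p = 0.1, the smallest possible (0.233 after Benjamini-Hochberg adjustment over 14 pairs), so none passed. The ratio of MBNL2 to MBNL1 was 0.0809, 0.0665 and 0.0777 in Vector 1, 2 and 3 and 1.11, 1.13 and 1.01 in LINC00665 1, 2 and 3, a 14.5-fold difference. The ratio of SRSF4 to SRSF6 was 0.367, 0.437 and 0.353 and then 0.921, 1.06 and 0.762, a 2.36-fold difference. These are the pairs with members that moved in opposite directions by the test above. SRSF10 to SRSF1 was 0.318, 0.318 and 0.285 and then 0.609, 0.690 and 0.574 (2.03-fold), with SRSF10 not called. HNRNPAB to HNRNPD differed 1.42-fold, PTBP2 to PTBP1 1.07-fold, and CELF2 to CELF1 35.8-fold in the lower direction. With FPKM in place of counts (0.1 added), the log2 difference was 0.86 in place of 1.24 for SRSF4 to SRSF6, 1.18 in place of 1.02 for SRSF10 to SRSF1, -3.52 in place of -5.16 for CELF2 to CELF1 and 0.33 in place of 0.10 for PTBP2 to PTBP1.

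**Figure D3:**
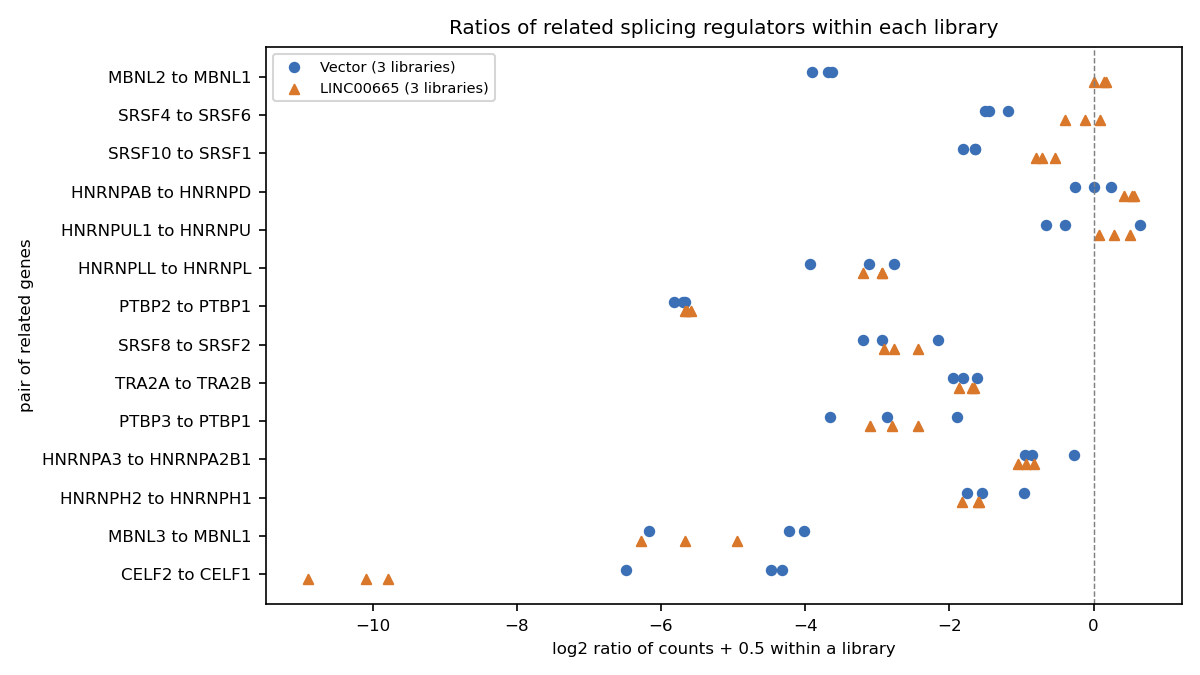
Log2 ratio of counts (0.5 added) of 14 pairs of related regulators in each of the 3 Vector and 3 LINC00665 libraries. The MBNL2 to MBNL1 ratio has means of -3.74 and 0.11, the SRSF4 to SRSF6 ratio -1.38 and -0.14; the exact p is 0.1 for each of the 6 pairs with groups that do not overlap.

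An indirect measure of isoform use was had from the deposited values. The count and FPKM of a gene together give the mean transcript length that the authors' FPKM assumed, which changes with the isoforms assigned; for genes with 1 transcript in GENCODE v29 it was constant within 1% in 343 of 350 (98.0%). This measure was chosen after the data were seen. Of 36 regulators tested, 10 changed (27.8%, beside 8.71% of 6903 genes tested by limma at an adjusted p of 0.05), 7 shorter (6.21% of all genes) and 3 longer (2.49%) under the LINC00665 label. The median absolute log2 length change was 0.06 for the regulators and 0.05 for all genes tested, so the typical size was alike. These regulators have a median of 96.8 FPKM, against 18.4 FPKM over all genes tested. The regulators tested in level have a median of 12 transcripts in GENCODE v29, against 7 for all genes. The part of level and transcript number in the share called was not tested. Of the 10, 6 were not called in level.

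SRSF6 had implied lengths of 3088, 3061 and 2919 nt under Vector and 2401, 2341 and 2382 nt under LINC00665, with no overlap (log2 -0.35, SE 0.03, adjusted p = 0.0074). GENCODE v29 lists for SRSF6 a coding transcript of 4325 nt and an NMD transcript of 1680 nt. The authors' annotation is not given and need not hold these transcripts. HNRNPH2, for example, has 1 transcript of 2223 nt in GENCODE v29 and an implied length of 2296 nt. SRSF2 had 1993, 1988 and 1947 nt and then 1750, 1703 and 1736 nt (log2 -0.19, adjusted p = 0.0089), while its level was not called. SRSF11 went from 2735, 2724 and 2723 nt to 2503, 2552 and 2520 nt (log2 -0.11, adjusted p = 0.015). In these SRSF genes all LINC00665 libraries lay below all Vector libraries. SRSF8, with 2293, 2939 and 2141 nt and then 1899, 1649 and 1696 nt, was not called (adjusted p = 0.093), and neither were SRSF3 (-0.09, adjusted p = 0.15) and SRSF10 (-0.13, adjusted p = 0.15), whose groups also did not overlap.

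Among the HNRNP genes, HNRNPK had 2020, 2023 and 1982 nt and then 1820, 1835 and 1826 nt (log2 -0.14, adjusted p = 0.011). HNRNPH1 had 1547, 1637 and 1607 nt and then 1397, 1421 and 1415 nt (log2 -0.18, adjusted p = 0.020). HNRNPH3 was shorter by 0.11 (adjusted p = 0.015) and HNRNPA2B1 by 0.07 (adjusted p = 0.036). The groups of all 4 genes were apart. HNRNPD and HNRNPC were longer, by 0.13 (adjusted p = 0.025) and 0.12 (adjusted p = 0.018). KHSRP, a KH-domain protein that acts in splicing and decay of AU-rich mRNA, had the largest gain of the 3, from 2424, 2474 and 2562 nt to 2890, 3173 and 2964 nt (log2 0.27, adjusted p = 0.026). HNRNPH2 stood at 2296 nt in all 6 libraries, but it has 1 transcript in GENCODE v29, so its constant length says nothing of isoform use.

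SRSF6, SRSF2 and HNRNPK passed the test with each library left out in turn. With a replicate block they did not (adjusted p = 0.061, 0.069 and 0.074, limma), and no length was called there over all genes. Of the 6 fits with a library left out, HNRNPH3 passed in 5, SRSF11 in 3, HNRNPH1, HNRNPC and KHSRP in 2, HNRNPD in 1 and HNRNPA2B1 in 0, with adjusted p up to 0.10. Counts of changed regulators were 4 without Vector 1, 8 without Vector 2, 6 without Vector 3, 5 without LINC00665 1, 6 without LINC00665 2 and 4 without LINC00665 3. Over all genes the counts in these fits were 218 to 361, in place of 601. A transcript that NMD acts on is annotated in GENCODE v29 for 12 of 12 SRSF genes tested (100%), for 14 of 22 HNRNP genes (63.6%), for 6 of 14 others (42.9%) and for 42.4% of all genes tested. The length does not tell which isoform was used.

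**Figure D4:**
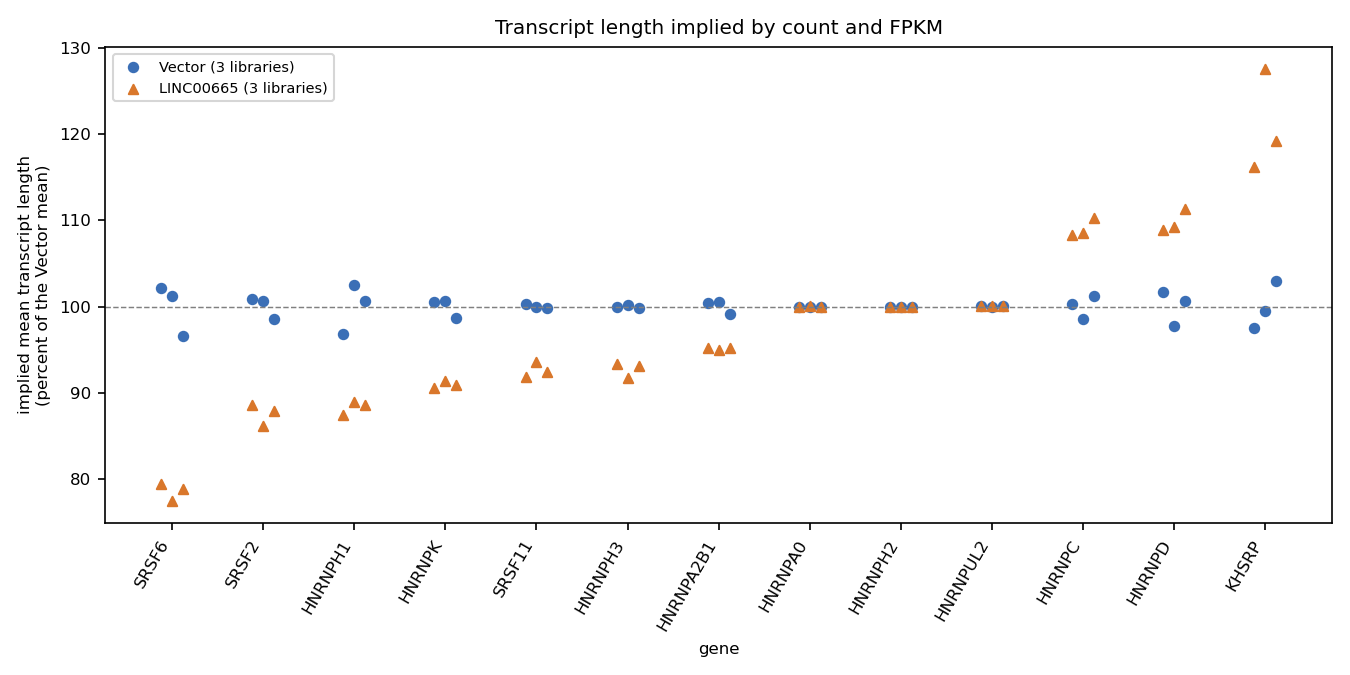
Mean transcript length implied by count and FPKM, as a percentage of the Vector mean, in each of the 3 Vector and 3 LINC00665 libraries. Shown are the 10 regulators that changed and HNRNPH2, HNRNPA0 and HNRNPUL2 (the axis does not start at 0). The last 3 have 1 coding transcript each in GENCODE v29, so their constant length says nothing of isoform use. SRSF6 fell by 21.4% and KHSRP rose by 20.9%.

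The kinases, phosphatases and import factors of SR proteins, which add or remove the phosphates on their tails or carry them to the nucleus, came from a list of 14. Of 13 tested, 6 were higher and 1 lower (53.8%, beside 63.5%). CLK1 and CLK4, nuclear kinases of SR proteins, stood at 16.2 ± 2.17 and 60.8 ± 8.68 CPM (log2 fold change 1.91, adjusted p = 3.7e-05) and at 5.69 ± 0.698 and 14.7 ± 1.09 CPM (1.37, adjusted p = 0.00032) under Vector and LINC00665 (SD, n = 3). PPP1CB, a catalytic subunit of protein phosphatase 1, rose by 0.59. PRPF4B, a kinase of the spliceosome, was the gene that fell, by 1.40 on the log2 scale (adjusted p = 0.00019).

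Of 70 core spliceosome and snRNP genes, all tested, 9 rose and 29 fell (54.3%), with a median log2 fold change of -0.24. Over all genes 63.5% were called, 34.2% higher and 29.3% lower, with a median of 0.03. SF3A2, of the U2 particle, rose by 0.98, SNRPB, a Sm protein, by 0.84 and SF1, which binds the branch point, by 0.68. DHX38, a helicase of the spliceosome, fell by 1.41 on the log2 scale, SF3B3 by 1.15 and CDC5L by 0.97. Of 43 further RNA-binding splicing regulators tested of 48 listed, 9 rose and 11 fell (46.5%, beside 63.5% of all genes), with a median of -0.01. ESRP2, the epithelial splicing regulator, stood at 0.109 ± 0.111 and 24.7 ± 2.04 CPM (log2 fold change 7.82), RBM24 at 0.548 ± 0.180 and 19.9 ± 1.23 CPM (5.17) and ELAVL2 at 1.68 ± 0.182 and 44.8 ± 1.38 CPM (4.73). ESRP2 had 6 counts over the Vector libraries and 1458 over the LINC00665 libraries. It thus passed the filter on low counts through the LINC00665 group alone, and a difference was built into that choice. RBM24 had 32 counts over the Vector libraries and 1171 over the LINC00665 libraries. Its Vector level was near the minimum of the filter, so a difference may be built into its choice too. The epithelial markers given above moved in the same direction as ESRP2, and their part in it was not tested. RBM5 fell by 1.35, MATR3, a nuclear matrix protein, by 1.07 and SRRM2, a scaffold of nuclear speckles, by 1.00.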

How the data were processed

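RNA was sequenced from 6 libraries, 3 per label; groups and replicate numbers come from the labels, which name independent experiments but no separate batches. The submitters' processing notes name HISAT2 2.0.4 and the build hg38 without a role. Which counter, annotation or strand setting served is not given in the sources used here. The authors deposited expected counts per gene, 88.3 to 89.4% of them whole, and FPKM values, scaled to length and depth, per the file headers.

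Expected counts were rounded, filtered with filterByExpr, scaled by TMM (factors of 0.918 to 1.07) and tested with edgeR 4.0.16 (quasi-likelihood) in R 4.3.3 without covariates. The adjusted p is Benjamini-Hochberg over 13552 genes. CPM uses the TMM-scaled library size. Implied length is the count divided by FPKM and by the library total, in nt, tested with limma 3.58.1 on log2 lengths, for genes with a mean of at least 5 FPKM, at least 1 FPKM in every library and lengths that vary by a ratio of 1.01 or more. The script was tested on simulated data with far fewer changed genes than were called in level here, so that test does not cover differences this widespread. Gene coordinates and transcripts come from GENCODE v29, promoters from RefSeq (GRCh38.p14). Figures were drawn with matplotlib 3.10.9.

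Members and lists were chosen with earlier results of these data known. By rule, values in every library were given for up to 12 called members per direction with groups that did not overlap, the 5 with the highest CPM, members of the paralog pairs and the 3 with the largest variation under Vector. Of each pathway list, the 3 genes with the smallest p per direction were named. Further members were named with their values known. Alternatives were other scalings and filters, DESeq2 1.42.0, limma, FPKM, a replicate block, a threshold of 0.01 and leaving out each library.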

Additional observations from a re-analysis of the deposited data

How the results depend on the processing

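Of the 20 called regulators, 15 kept their call under every alternative that gave them a value. Among these 15, CELF2, SRSF12 and RBFOX3 passed the filter on low counts through 1 group alone. A difference was built into that choice, so their kept calls add no support. HNRNPC, HNRNPU, HNRNPUL1, MBNL3 and TRA2A lost their call under some alternatives. Beside the losses with a library left out or another scaling given above, MBNL3 lost its call with limma-voom (adjusted p = 0.077), and all 5 did at a threshold of 0.01. No called value changed sign. The higher calls numbered 5 to 7 and the lower calls 10 to 20 over all alternatives. The share called was 31.2 to 52.1% of the regulators and 50.0 to 67.1% of all genes, and it was smaller for the regulators under each alternative. With a replicate block, 19 regulators were called (39.6%, beside 58.5% of all genes). HNRNPC (adjusted p = 0.087) and MBNL3 (adjusted p = 0.071) were lost there and HNRNPA3 was gained (adjusted p = 0.048). Deviations of same-numbered libraries correlated at 0.152, -0.132 and -0.154, and those of libraries with different numbers at -0.107 to 0.207. Pairing by replicate number was thus not seen, but with 3 libraries per label these values cannot exclude it. With the block, no implied length was called, over all genes (0) or among the regulators (0), and the adjusted p of SRSF6, SRSF2 and HNRNPK was 0.061, 0.069 and 0.074. Leaving out 1 library gave 218 to 361 genes changed in length in place of 601, and 4 to 8 regulators in place of 10. Requiring lengths that vary by at least 5% left 6 regulators, and 524 over all genes. At an adjusted p of 0.01, 3 SR kinases and import factors and 4 core spliceosome genes were higher, with 3875 higher over all genes in place of 4634. Under total-count scaling and under log2(FPKM + 1), 2 SR kinases and import factors were lower in place of 1. Over all genes 4770 and 4402 were then lower, in place of 3977. Leaving out 1 library gave 5 to 10 core spliceosome genes higher, and 4142 to 5033 over all genes. Low-count members (RBFOX3, NOVA2, CELF2, SRSF12) are limited by depth. The cause of these shifts was not tested.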
